A study of Mus musculus with 141 samples.

Results

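The transcripts of 34 nuclear receptors were followed across liver, lung and kidney in mice of the Collaborative Cross, whose inbred strains each carry a different mosaic of 8 founder genomes. The receptors were chosen by gene symbol from the nuclear receptor family, without the receptors of the circadian clock and of bile acid sensing. All 34 symbols were among the 24423 genes held for each library. Each of 47 strains (named CC001, CC002 and so on) was represented by 1 male mouse of 8 to 12 weeks, and each mouse gave 1 RNA-seq library of liver, 1 of lung and 1 of kidney. There were therefore 3 groups of 47 libraries, and a strain's liver, lung and kidney were taken from its 1 mouse. No group was treated or genetically modified: all mice had the same diet and spent 2 weeks in chambers supplied with clear air, for 6 h per day from Monday to Friday. Strain and mouse cannot be told apart with 1 mouse per strain.

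Nuclear receptors are transcription factors that bind DNA next to the genes they control. Many are switched by small lipid-soluble ligands such as thyroid hormone, retinoic acid, steroids and fatty acids. Several of them bind DNA only as a pair with a retinoid X receptor (RXR), and others, the orphan receptors, have no known natural ligand or act without one. Liver, lung and kidney use them to set fat oxidation, drug clearance, salt balance and the response to glucocorticoids. What RNA-seq measures here is the receptor transcript, not the protein or its activity.

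Total counts per library ranged from 1738046 to 42158454, with medians of 10423382 in liver, 9338124 in lung and 8245850 in kidney. A single ribosomal RNA gene, *Rn45s*, took between 0.146% and 71.7% of the counts of a library. Levels are therefore given as CPM (counts scaled to a common library size) after TMM normalisation, which sets libraries against each other by the bulk of their genes. Hepatocyte markers summed to a median of 104200 CPM in liver against at most 3906 in the other tissues, alveolar type 2 cell markers to 5236 CPM in lung, and proximal tubule markers to 27630 CPM in kidney. In each tissue, the 1 library with the lowest median correlation with the others was picked as standing apart. These were CC033 liver (0.8771, next lowest 0.906), CC015 lung (0.8995, next lowest 0.9195) and CC020 kidney (0.9104, next lowest 0.9248). Results were also computed without these strains. In CC033 liver the TMM factor was 0.127, so that a single count there was worth 1.56 CPM, and this library gave the highest liver level of 7 of the 21 resolved receptors. In lung, CC037 gave the highest level of 8 of 17, from 3375073 counts in all. Some libraries also held transcripts of neighbouring organs. Chosen marker lists were checked, which for liver were adrenal cortex, proximal tubule, skeletal muscle and adipocyte. For lung they were skeletal muscle and adipocyte, and for kidney adrenal cortex and adipocyte. By these lists, 20 livers, 19 lungs and 5 kidneys had over 100 CPM of markers of another organ. Other lists were left out of this count. Proximal tubule markers summed to at least 117 CPM in every lung, and hepatocyte markers to at least 897.1 CPM in every kidney.

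How far a receptor could be followed is described by its counts, beside the number of transcripts that the authors' annotation gives it. The part of transcript number in the counts was not tested apart from true level or transcript length. A receptor was taken as resolved in a tissue when more than 3 counts were found in at least 24 of the 47 libraries, a limit that covers counting error only. By this measure, 21 receptors were resolved in liver, 17 in lung and 22 in kidney. The 10 receptors with a single transcript in the files had a highest tissue median of 2.07 to 215 CPM (median 34.3). The 24 receptors with several transcripts lay between 0 and 19.1 CPM (median 1.65). Over all genes the corresponding medians were 2.95 CPM for 18311 genes with 1 transcript and 0.353 CPM for 6112 genes with several. Only uniquely aligned reads were counted, so reads shared by transcripts may be missing, and levels of receptors with several transcripts may be too low.

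A set of 22 receptors passed the filter of the tissue comparison, which kept genes above 1 CPM in 30% or more of all libraries. The 12 others are given by their counts. *Rxrb*, the retinoid X receptor that has 4 transcripts in the files, had 0 counts in every library, and this says nothing of its presence in the tissues. *Nr1h2* (LXR beta, an oxysterol receptor) had at most 2 counts in any library. *Rorb* had 0 counts in all livers and at most 3 counts elsewhere. *Nr5a2* (LRH-1, a regulator of liver cholesterol and bile acid genes) had a median of 13 counts in liver, between 1 and 97, with 1 count at most in lung and 0 in all kidneys. *Esrrb*, an estrogen-related receptor, showed the opposite order of tissues: its median was 7 counts in kidney (between 1 and 33), with at most 1 count in a liver and 2 in a lung. *Nr1i3* (CAR, the constitutive androstane receptor, a sensor of drugs) had a median of 4 counts in liver and reached 57, but had at most 1 count in any lung or kidney library. *Esr1* (the estrogen receptor alpha) had medians of 4 counts in liver, 2 in lung and 6 in kidney. *Nr1h3* (LXR alpha) had medians of 7, 2 and 4 counts in liver, lung and kidney. The remaining 4, namely *Pparg*, *Rxrg*, *Nr4a2* and *Nr6a1*, had medians between 0 and 3 counts in each tissue. The highest count of *Pparg*, the receptor that drives fat cell formation, was 14, in a kidney. Adipocyte markers reached 509.6 CPM in the kidney of CC059, and their part in the *Pparg* counts was not tested.

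Tissues were compared in 1 limma-voom fit of all 11879 genes that passed the filter, with strain as a block. A gene was called where the Benjamini-Hochberg adjusted p (q) was at most 0.1 and the log2 fold change at least 1 in either direction. Of the 22 tested receptors, 18 were called in at least 1 of the 3 pairs of tissues and 4 in none. The share of all genes called in at least 1 pair was not computed, so the 18 are not read as a trait of receptors. By pair, 14 (liver against lung), 10 (liver against kidney) and 12 (lung against kidney) receptors were called, against 6542, 4377 and 5557 of the 11879 genes. Between liver and lung, 7 receptors were higher in liver and 7 higher in lung, where 24.4% and 30.7% of all tested genes were called in these directions. Between liver and kidney, 5 were higher in liver and 5 in kidney, against 15.1% and 21.8% of all genes. Between lung and kidney, 5 were higher in lung and 7 in kidney, against 24.5% and 22.2% of all genes. The median absolute log2 fold change of the receptors was 1.42, 0.72 and 1.34 in the 3 pairs, and that of all genes was 1.17, 0.65 and 0.90. Every receptor call had a q of 1.75e-11 or less.

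The balance of these calls depended on the scaling. Total counts without TMM were tried after seeing the data. The median of all genes then moved by -1.39 (liver minus lung), -0.89 (liver minus kidney) and 0.50 (lung minus kidney) on the log2 scale. The receptors were split 1 higher in liver and 12 in lung, 0 higher in liver and 11 in kidney, and 8 higher in lung and 5 in kidney. In the same order, the calls among all 12127 tested genes were split 1186 and 7465, 981 and 5794, and 4039 and 1836. On log2(TPM + 1), where the median moved by -1.18, -0.66 and 0.50, the receptor splits were 1 and 11, 1 and 6, and 8 and 3. Those of all 11879 genes were 1025 and 6829, 838 and 4175, and 3662 and 1561. With DESeq2 size factors, under which the median moved by at most 0.24 in size, the receptor splits were 6 and 7, 5 and 5, and 6 and 6. Those of all 11917 genes were 2438 and 4106, 1758 and 2655, and 3301 and 2265. Among all receptor calls, the direction of 1 was reversed under these scalings (*Esrra*, liver against lung). Of all differences, called or not, 3 of 66 changed sign with DESeq2 size factors, 14 of 66 on log2(TPM + 1) and 13 of 60 on total counts. A receptor described here as higher in liver was thus higher relative to the bulk of the liver's genes.

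**Figure D1:**
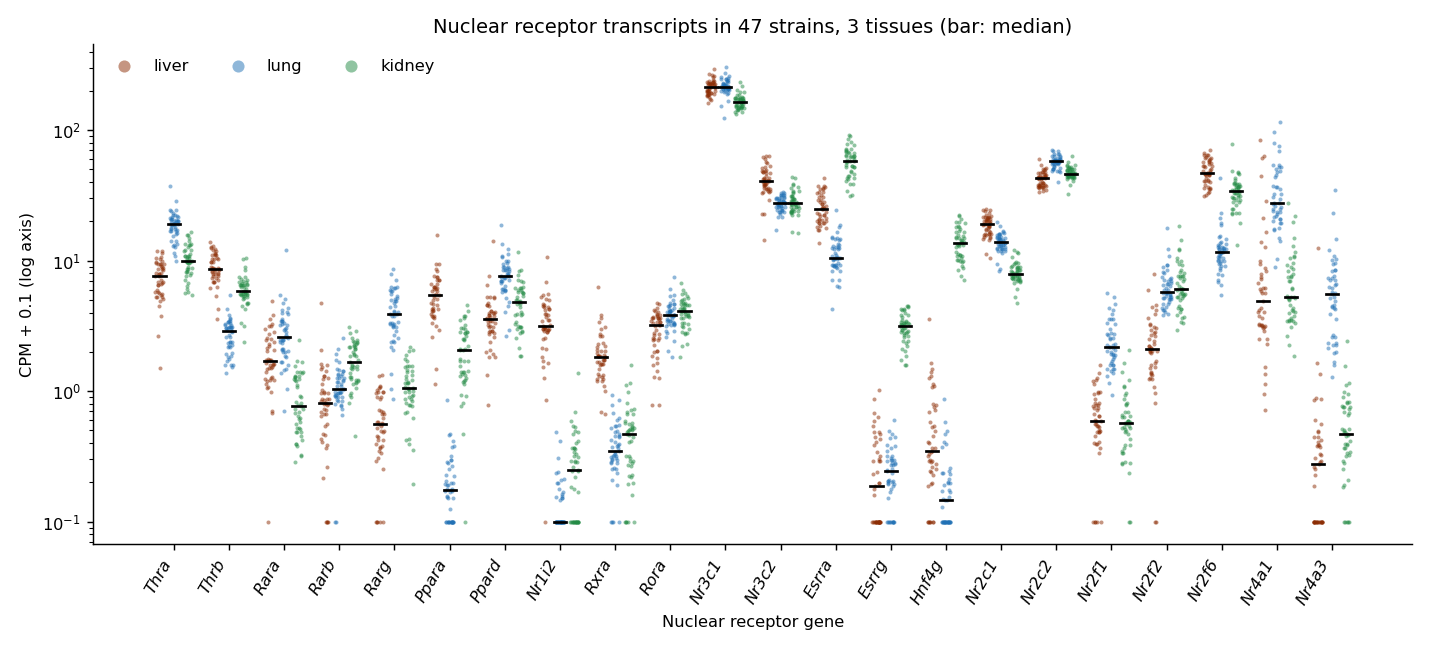
Level of the 22 tested receptors in each library, in CPM after TMM scaling with 0.1 added, on a log axis. Each point is 1 of 47 strains in liver (brown), lung (blue) or kidney (green), and the black bar is the median. *Hnf4g* and *Esrrg* in kidney lie clear of liver and lung, and the 3 medians of *Nr3c1* lie close together on this scale.

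**Figure D2:**
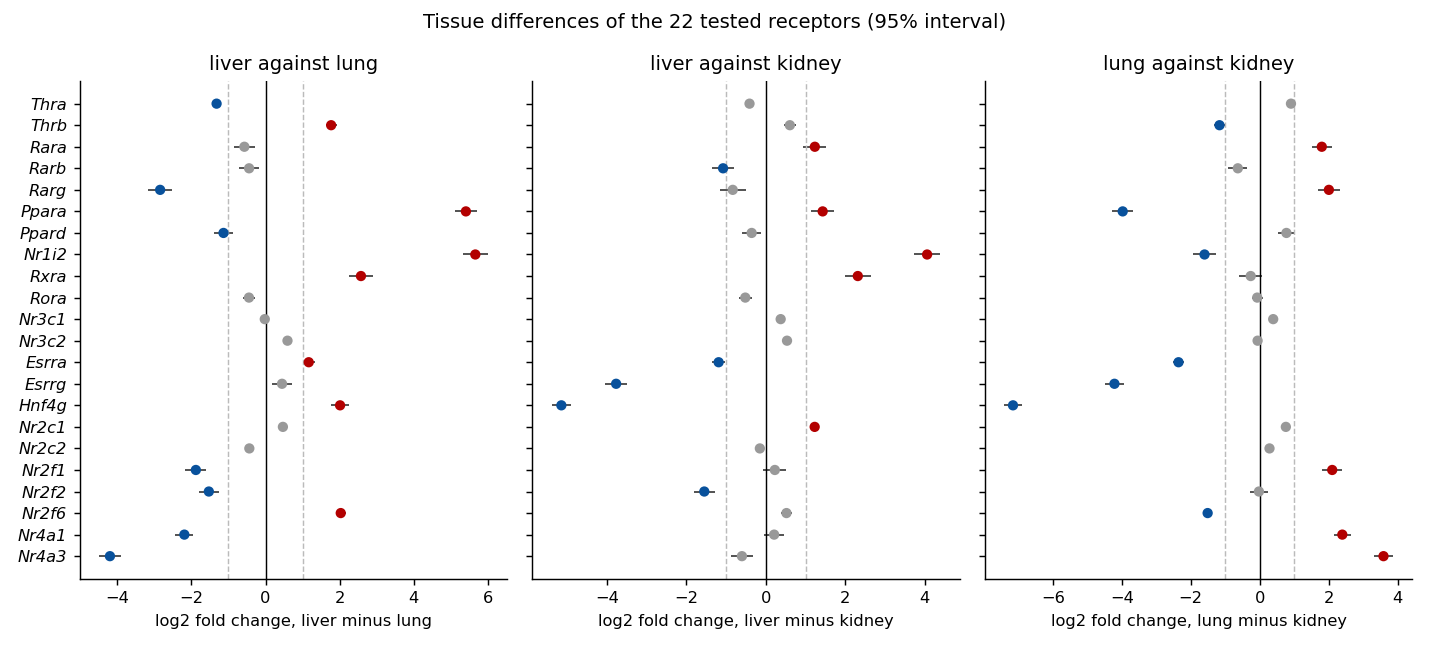
Log2 fold change of each tested receptor between 2 tissues with its 95% interval from the limma-voom fit, in 3 panels for liver minus lung, liver minus kidney and lung minus kidney. Red points were called higher in the first tissue, blue points higher in the second and grey points were not called. The dashed lines mark a log2 fold change of 1, and the spread runs from -7.16 for *Hnf4g* (lung minus kidney) to 5.66 for *Nr1i2* (liver minus lung). This *Nr1i2* value depends on the value given to a count of 0, since no lung had more than 3 counts of it.

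The thyroid hormone receptors *Thra* and *Thrb*, which bind the same hormone, were called in opposite directions between liver and lung after TMM scaling. *Thra* was highest in lung, with a median of 19.1 CPM (range 9.76 to 37.0), while liver had 7.57 CPM (1.40 to 11.8) and kidney had 9.80 CPM (5.35 to 16.4). *Thrb* had 8.58 CPM (3.48 to 13.7) in liver, 5.70 CPM (2.27 to 10.3) in kidney and 2.77 CPM (1.28 to 5.36) in lung. Its order of liver over kidney held after TMM scaling (log2 difference 0.60, not called) and not on total counts (-0.27) or log2(TPM + 1) (-0.21). All 47 mice had more *Thra* in lung than in liver and more *Thrb* in liver than in lung. Liver minus lung, the log2 fold change was -1.32 ± 0.06 (SE) for *Thra* and 1.77 ± 0.07 for *Thrb*, whose call was lost on total counts (0.44) and on log2(TPM + 1) (0.20). The *Thrb* difference between lung and kidney (-1.17 ± 0.07) was called, but fell to -0.98 with DESeq2 size factors and lost its call there, and the *Thra* difference between them (0.91 ± 0.06) was below the fold threshold and above it with DESeq2 size factors (1.11). Part of the *Thra* locus is shared with another gene, as described with the differences between strains.

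The retinoic acid receptors also differed in their order. *Rarg* had a median of 3.83 CPM in lung (0.765 to 8.60), but 0.955 CPM in kidney (0.0932 to 2.08) and 0.458 CPM in liver (0 to 1.24). It was 7.17-fold higher in lung than in liver, in all 47 mice, and 4.02-fold higher in lung than in kidney, in 44. *Rara*, with medians of 1.61 CPM in liver, 2.49 CPM in lung and 0.666 CPM in kidney, was lowest in kidney, by 1.23 ± 0.15 log2 units against liver and 1.80 ± 0.15 against lung. Its call of liver over kidney was lost on total counts. *Rarb* was called in 1 pair, higher in kidney (1.57 CPM) than in liver (0.705 CPM) with a log2 fold change of -1.08 ± 0.14. The 3 isotypes together were called in 2 of 3 pairs for *Rara* and *Rarg* and in 1 for *Rarb*, and their liver levels rest on medians of 10 counts (*Rara*), 4 counts (*Rarb*) and 3 counts (*Rarg*).

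*Ppara*, the fatty acid receptor that drives fat oxidation, and *Nr1i2* (PXR, a sensor of drugs and other foreign compounds) were the receptors with the largest liver excess. *Ppara* had a median of 5.33 CPM in liver (1.03 to 15.6), whereas kidney had 1.96 CPM (0 to 4.47) and lung 0.0743 CPM (0 to 0.758). The ranges of liver and lung did not overlap, and 40 of 47 lung libraries were at or under 3 counts. The fitted log2 fold changes were 5.40 ± 0.16 for liver against lung, 1.43 ± 0.14 for liver against kidney and -3.97 ± 0.16 for lung against kidney. The call of *Ppara* higher in liver than in kidney was lost on total counts. *Nr1i2* had 3.04 CPM in liver (0 to 10.6), with at most 3 counts in any lung and a median of 1 count in kidney. Liver stood 4.06 ± 0.17 log2 units above kidney, in 46 of 47 mice, while the fold against lung depends on the value given to a count of 0. *Nr1i2* was also called higher in kidney than in lung, but both tissues lay at or under 3 counts in most libraries and no fold is given.

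*Ppard*, the isotype of wide distribution, ran the other way. Its median was 7.52 CPM in lung (2.56 to 18.7), and those of kidney and liver were 4.74 CPM (1.77 to 11.5) and 3.48 CPM (0.689 to 14.0), so that lung stood 2.19-fold above liver (log2 fold change of liver minus lung -1.13 ± 0.12). *Rxra*, the partner of PPARs, PXR and thyroid hormone receptors, had 1.74 CPM in liver, 0.247 CPM in lung and 0.370 CPM in kidney, and was called higher in liver than in both. Since 25 lungs and 29 kidneys were at or under 3 counts, no fold is given, and on log2(TPM + 1) the log2 difference was 0.32 against lung and 0.38 against kidney, under the threshold. Of the summed TPM of the RXR isotypes, in the 47 livers, 44 lungs and 43 kidneys that had a count, *Rxra* held 59.2% ± 21.9 (SD between libraries) in liver, 48.2% ± 30.9 in lung and 71.9% ± 30.1 in kidney, and *Rxrg* held the rest because *Rxrb* was at 0. These shares spread too widely between libraries to order the tissues. They are also shares of the deposited TPM and not of the isotypes in the tissue. *Rxra*, *Rxrb* and *Rxrg* have 3, 4 and 2 transcripts in the files, and each may be undercounted by a different amount. *Rora*, an orphan receptor of the RAR-related group, had medians of 3.08, 3.72 and 3.98 CPM in liver, lung and kidney and was called in none of the pairs.

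The glucocorticoid receptor *Nr3c1* differed less than the fold threshold between tissues after TMM scaling. Its median was 213 CPM in liver (161 to 292), 215 CPM in lung (124.5 to 306) and 163 CPM in kidney (132 to 233). Liver minus lung, the log2 difference was -0.02 (95% interval -0.09 to 0.05, q = 0.61 by limma-voom), but this depended on the scaling: it was -0.25 with DESeq2 size factors (q = 2.32e-10), -1.37 on total counts (q = 5.81e-15) and -1.47 on log2(TPM + 1) (q = 1.08e-26). It was called on total counts and on log2(TPM + 1). The 0.37 ± 0.04 by which liver stood above kidney was seen in 43 of 47 mice and turned to -0.49 on total counts and -0.51 on log2(TPM + 1), under the fold threshold in each. The mineralocorticoid receptor *Nr3c2*, which binds aldosterone and, where it is not protected, glucocorticoids, had 40.9 CPM in liver (14.3 to 63.7), 27.5 CPM in lung (17.2 to 33.2) and 27.6 CPM in kidney (16.2 to 43.8). It was called in no pair. For kidney, the classical tissue of aldosterone action, the log2 difference (lung minus kidney) was -0.06 (95% interval -0.16 to 0.04), and it was 0.13 with DESeq2 size factors and 0.52 on log2(TPM + 1). Its excess in liver over lung (0.59) turned to -0.76 on total counts and -0.84 on log2(TPM + 1).

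Per kilobase of transcript, the scale on which genes can be set against each other, the 10 receptors with a single transcript could be ordered within each tissue. In liver *Nr3c1* stood first with 34.1 ± 4.43 CPM per kb (SD, n = 47), followed by *Nr2f6* with 22.4 ± 4.83, *Esrra* with 11.7 ± 3.08 and *Nr3c2* with 10.4 ± 2.57. In lung *Nr3c1* (34.7 ± 4.62) was followed by *Nr4a1* (14.7 ± 9.18) and *Nr2c2* (7.57 ± 0.819). In kidney *Esrra* (26.5 ± 6.74) and *Nr3c1* (26.4 ± 3.33) differed by less than their spread between mice. *Esrra* and *Nr3c2* in liver, and *Nr4a1* and *Nr2c2* in lung, were likewise within the larger of the SDs of the 2 neighbours. The last place was held by *Hnf4g* in liver and lung and by *Nr2f1* in kidney.

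The estrogen-related receptors, orphan receptors that raise mitochondrial and energy genes, were high in kidney. *Esrra* had 57.9 CPM in kidney (31.4 to 90.9), 24.8 CPM in liver (13.7 to 42.7) and 10.4 CPM in lung (4.18 to 24.3). The kidney and lung ranges did not overlap, and kidney was 5.12-fold above lung and 2.28-fold above liver. Its excess in liver over lung (1.17 ± 0.08 log2 units, in all 47 mice) was the call that turned with the scaling, to -0.15 on total counts without TMM and to -0.25 on log2(TPM + 1). *Esrrg* had 3.05 CPM in kidney (1.48 to 4.42), with medians of 1 count in liver and 2 in lung. Every kidney lay above every liver and every lung, with fitted log2 fold changes of -3.77 ± 0.14 (liver minus kidney) and -4.21 ± 0.14 (lung minus kidney).

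*Hnf4g*, the paralog of the liver and kidney regulator HNF4 alpha, was the receptor with the sharpest division between tissues. Kidney held 13.5 CPM (6.97 to 22.3), or 116 counts per library at the median. Liver held a median of 2 counts and lung 1 count. The kidney range lay above those of both other tissues in all 47 mice, with log2 fold changes of -5.15 ± 0.12 (liver minus kidney) and -7.16 ± 0.13 (lung minus kidney). Between liver and lung it was also called, but 38 livers and 43 lungs were at or under 3 counts. The liver with the highest *Hnf4g* level, 3.44 CPM from 5 counts, was that of CC036, where proximal tubule markers summed to 453.7 CPM against a median of 46.4 over all livers. The part of kidney RNA in the liver counts of *Hnf4g* was not tested.

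Of the receptors of the NR2 group, orphan factors of which several repress genes, *Nr2f6*, *Nr2c1*, *Nr2f1* and *Nr2f2* were called in at least 1 pair and *Nr2c2* in none. *Nr2f6* had 47.2 CPM in liver (31.3 to 70.4), 33.8 CPM in kidney (13.0 to 78.0) and 11.5 CPM in lung (5.36 to 42.6). Lung was lowest, with a log2 fold change of 2.03 ± 0.07 for liver minus lung and of -1.51 ± 0.07 for lung minus kidney. *Nr2c1* had 18.9 CPM in liver, 13.8 CPM in lung and 7.86 CPM in kidney, and liver stood above kidney in all 47 mice (2.34-fold). This call was lost on total counts, where 0 receptors and 981 of all 12127 genes were called higher in liver than in kidney. The close relative of *Nr2c1*, *Nr2c2*, had 42.7, 57.4 and 46.3 CPM and was called in no pair. *Nr2f1* and *Nr2f2*, the latter known from the development of vessels, were both lower in liver than in lung. Their medians were 0.491 against 2.07 CPM and 1.995 against 5.67 CPM. In kidney they parted: *Nr2f1* (0.470 CPM) was 4.29-fold lower than in lung, whereas *Nr2f2* (5.97 CPM) had a log2 difference of -0.02 ± 0.13, which changed sign with DESeq2 size factors. *Nr2f1* was at or under 3 counts in 25 livers and 19 kidneys, so that its fold is a fitted value. Endothelial markers summed to a median of 962.7 CPM in lung, against 181.3 in liver and 154.5 in kidney. In bulk tissue, fewer cells of a type and less RNA per cell cannot be told apart.

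The NR4A receptors are early response genes: they are switched on by stress, growth factors and hormones within minutes, and act without a ligand. Both tested members were highest in lung. *Nr4a1* (NUR77) had a median of 27.7 CPM in lung (8.84 to 114.6), against 5.19 CPM (1.74 to 27.4) in kidney and 4.76 CPM (0.611 to 84.1) in liver. *Nr4a3* (NOR1) had 5.43 CPM in lung (1.17 to 34.8), with medians of 3 counts in kidney and 1 in liver. Lung stood above liver in 44 of 47 mice for *Nr4a1* and in 46 for *Nr4a3*, with log2 fold changes (liver minus lung) of -2.19 ± 0.12 and -4.19 ± 0.15. Against kidney they were 2.39 ± 0.12 and 3.59 ± 0.14 (lung minus kidney). The value of *Nr4a3* against liver is a fitted one, since 42 livers were at or under 3 counts. The ranges overlapped in each of these comparisons. The liver of CC006 had the highest levels of both genes in that tissue (84.1 CPM of *Nr4a1* from 464 counts and 12.3 CPM of *Nr4a3* from 68), and the same library held 2996 CPM of adrenal cortex markers against a median of 8.11. The part of adrenal RNA in these values was not tested. Without the 20 strains whose livers held markers of another organ, the log2 fold change of liver minus lung was -2.45 for *Nr4a1* and -4.40 for *Nr4a3*, and that of liver minus kidney for *Nr4a3* went from -0.60 to -1.01 and was called.

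Coregulators, the proteins that receptors recruit to switch genes on or off, were listed beside them. Of 20 listed genes, 16 were tested, and 1 in each direction was called between liver and lung (24.4% and 30.7% of all genes) and 1, higher in kidney, between liver and kidney (21.8%). *Ppargc1b*, a coactivator of energy genes, was low in lung: 3.31 CPM (1.49 to 5.11), against 15.7 CPM in liver (5.97 to 31.6) and 19.6 CPM in kidney (7.54 to 30.7). *Ep300*, a histone acetyltransferase, was higher in lung (138 CPM) than in liver (65.4 CPM), and *Ncoa3*, a coactivator of steroid receptors, was higher in kidney (121 CPM) than in liver (60.6 CPM), each in all 47 mice. The median absolute log2 fold change of the list was 0.64, 0.21 and 0.27 in the 3 pairs, where all genes had 1.17, 0.65 and 0.90.

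Genes that carry, make or break down the ligands were listed as well. Of 31 such genes, 24 were tested: 14 were higher in liver and 5 in lung (24.4% and 30.7% of all genes), 15 in liver and 6 in kidney (15.1% and 21.8%), and 9 in lung and 13 in kidney (24.5% and 22.2%), with median absolute log2 fold changes of 4.05, 3.04 and 1.82. Among carriers, *Ttr* (transthyretin, for thyroid hormone and retinol-binding protein) had 5267 CPM in liver against 3.13 in lung, and *Fabp1*, the liver fatty acid-binding protein, had 4141 CPM in liver against 6.82 in lung and 1.86 in kidney. *Rbp4*, the retinol carrier of plasma, and *Serpina7*, the thyroxine-binding globulin, had 13.9 and 42.4 CPM in liver, with kidney medians of 0 and 0.153. *Fabp4*, a fatty acid-binding protein of fat cells and capillaries, was higher in kidney (60.7 CPM, 14.8 to 496.2) than in liver (7.57 CPM). Adipocyte markers ran from 0.386 to 509.6 CPM over the kidneys, and their part in the *Fabp4* level was not tested.

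Among the enzymes, *Hsd11b2*, which inactivates glucocorticoids and so leaves *Nr3c2* to aldosterone, had 31.4 CPM in kidney (18.2 to 61.6), 1.13 CPM in lung (0 to 2.75) and 0.229 CPM in liver (0 to 1.17). The kidney range lay above both others. *Hsd17b2*, which inactivates sex steroids, had 194 CPM in liver, against 10.7 in kidney and 0.295 in lung. Of the deiodinases, *Dio1* had 12.2 CPM in kidney against 0.222 in lung, and *Dio2*, which makes active thyroid hormone, had 2.47 CPM in lung against 0.611 in kidney and a median of 0 in liver. The 3 listed genes with the largest excess in lung over kidney were *Lrat*, which forms retinyl esters, with 72.1 CPM (5.64 in kidney), and the retinaldehyde dehydrogenases *Aldh1a1* with 708 CPM (87.2 in kidney) and *Aldh1a2* with 11.6 CPM (2.43 in kidney, 0.264 in liver). *Ch25h*, which makes an oxysterol, had 2.42 CPM in lung and a median of 0 in liver. Each difference named in the lists had a q of 1.47e-17 or less by limma-voom.

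Between strains of the same tissue, the receptors ran from among the steadiest to among the most variable of genes. The measure was the SD of log2 CPM over the 47 mice, ranked among genes above 1 CPM in 30% or more of that tissue's libraries. *Nr3c1* had an SD of 0.185 in liver, 0.204 in lung and 0.173 in kidney, with 2.3%, 11.8% and 5.59% of genes below it. *Nr2c2* had 0.190, 0.160 and 0.154, with 2.95%, 2.79% and 2.7% below it. At the other end, *Nr4a1* had 1.52 in liver (96% of 10288 genes below it), 0.80 in lung (89% of 11580) and 0.854 in kidney (88.6% of 10830). *Nr4a3* had 1.02 in lung (94.4%). Counting alone would give *Nr4a1* an SD of 0.353 in liver, 0.0820 in lung and 0.234 in kidney. *Nr1i3* in liver also had a wide SD (1.35), but counting alone would give 0.891 at its depth.

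**Figure D3:**
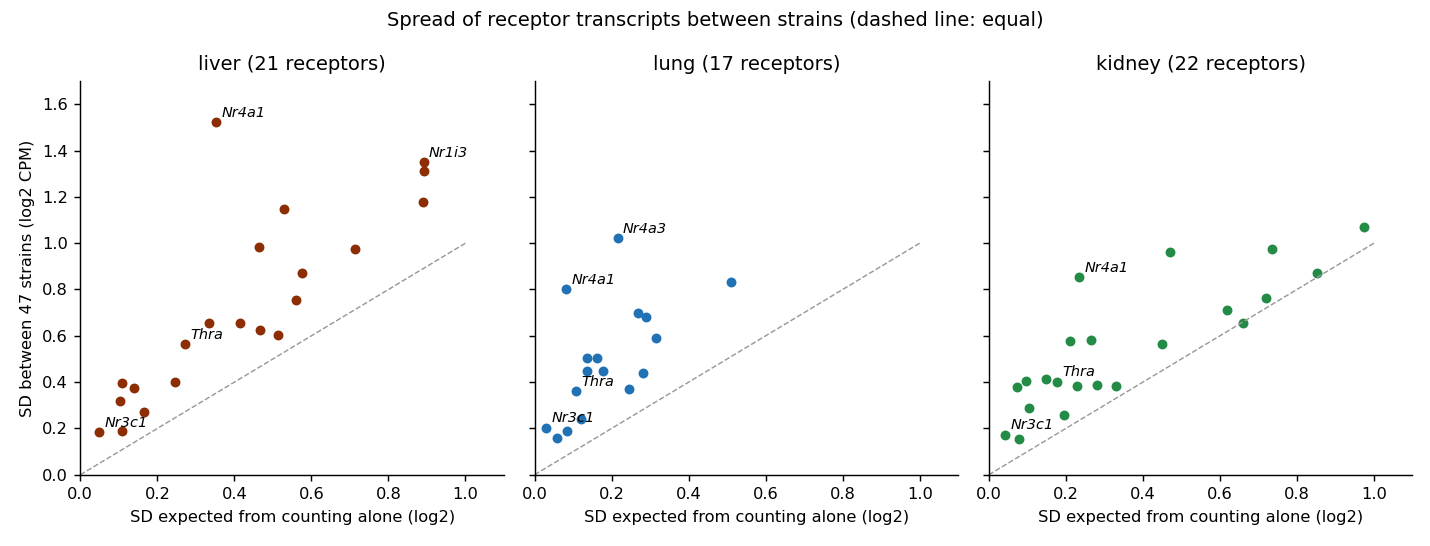
SD between 47 strains of each resolved receptor (y axis, log2 CPM) against the SD that counting alone would give (x axis, log2), in 3 panels for 21 receptors in liver, 17 in lung and 22 in kidney. The counting SD was computed from the mean reciprocal count over the 47 libraries. The dashed line marks equality; *Nr4a1* in liver lies highest (1.52), and *Nr2c2* lies at or next to the bottom of each panel.

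*Nr4a1* was then set against other early response genes. Each gene of a tissue was regressed on the log2 CPM of *Nr4a1* over the 47 strains with limma-voom, and called where q was at most 0.1 with a positive slope. In lung, 8 of the 18 tested genes of a list of 20 early response genes were called, where 0.0798% of 12532 genes were called (10 genes). In kidney, 9 of 16 were called, against 0.109% of 11038 genes (12 genes). In liver, 0 of 14 were called, against 0% of 9293 genes, although 7 of the 14 had an unadjusted p under 0.05 with a positive slope by the same test (385 of all genes). *Nr4a1* and these genes are markers of the same kind of response, so the fit says which of them vary together and not which acts on which.

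The gene with the smallest q in both tissues was *Fos*, a subunit of the AP-1 factor. In lung *Fos* ran from 14.6 to 81.3 CPM (median 26.5), with a slope of 0.706 ± 0.064 log2 units per log2 unit of *Nr4a1* (q = 1.1e-10). Pearson's r was 0.832 and Spearman's rho 0.807 (permutation p = 1e-05 for each, the smallest that 100000 permutations can give, and 2.17e-05 and 2.6e-05 after adjustment over 13 pairs). The r was 0.797 without the 2 strains farthest from the median of *Nr4a1*. In kidney *Fos* ran from 0.591 to 17.3 CPM (median 4.29), with a slope of 0.837 ± 0.0985 (q = 3.77e-07), r of 0.703 and rho of 0.667 (permutation p = 1e-05 for each, adjusted 2.17e-05 and 2.6e-05) and r of 0.621 without the 2 farthest strains. In liver *Fos* ran from 1.32 to 37.0 CPM, and r was 0.254 (permutation p = 0.0825, adjusted 0.119) with rho of 0.262 (p = 0.0738, adjusted 0.107) and r of 0.215 without the 2 farthest strains. The liver of CC006, highest in *Nr4a1*, had 4.90 CPM of *Fos*, below the median of 5.05, while CC011 and CC001, next highest in *Nr4a1*, were among the 3 livers highest in *Fos*.

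**Figure D4:**
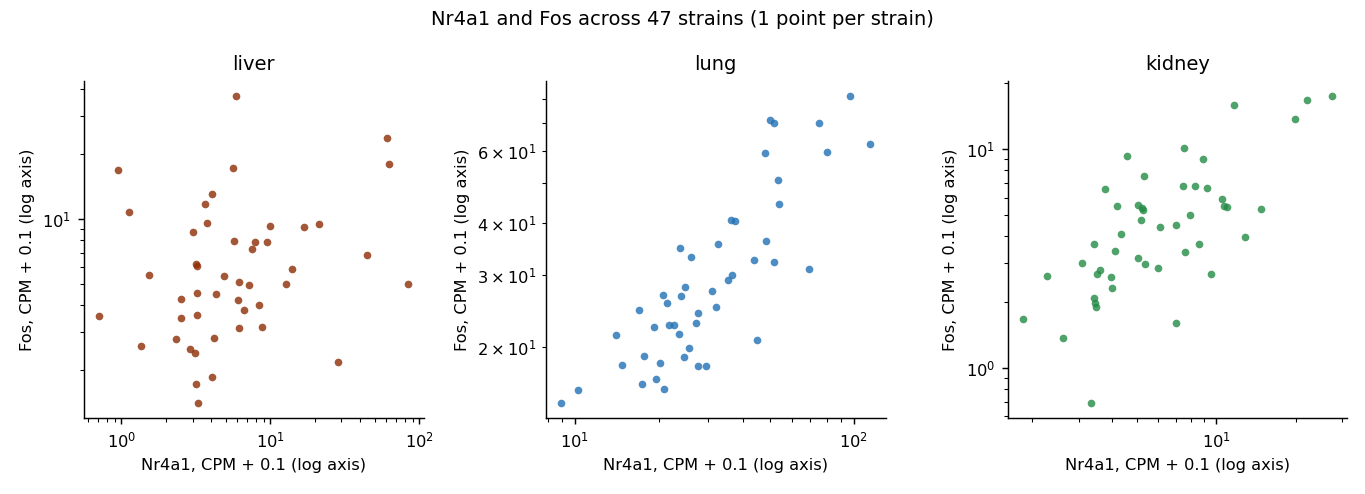
*Fos* (y axis) against *Nr4a1* (x axis) in CPM with 0.1 added, both on log axes, in liver, lung and kidney, with 1 point for each of 47 strains. The points rise together in lung (r = 0.832) and kidney (r = 0.703) and form a loose cloud in liver (r = 0.254).

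A group of 8 genes was called in both lung and kidney, which is 80% of the lung calls and 66.7% of the kidney calls. They were *Fos*, *Egr1*, *Btg2*, *Zfp36*, *Ier2*, *Dusp1* and *Cyr61* of the list, and *Apold1*, an early response gene of endothelial cells, from outside it. *Egr1*, a zinc finger factor, had r of 0.784 in lung and 0.661 in kidney (rho 0.795 and 0.631, r 0.790 and 0.565 without the 2 farthest strains). *Cyr61*, a secreted matrix protein, had r of 0.801 in lung (rho 0.795, r 0.773 without the 2 farthest), and *Btg2*, which slows the cell cycle, had r of 0.641 in kidney (rho 0.529, r 0.534 without them), with a permutation p of r of 1e-05 (adjusted 2.17e-05) in all of these. The remaining listed call in lung was *Fosb*, and those in kidney were *Jun* and *Junb*, which encode other AP-1 subunits. Outside the list, *Dusp5* was called in lung and *Rasd1* and *Particl* in kidney. The kidney result rested on few mice. Without CC041 and CC042, the 2 strains with the highest *Nr4a1* in kidney (27.4 and 21.9 CPM), 1 listed gene was called in kidney. It was the only call among 11038 genes. Without the strains whose library held markers of another organ, 4 listed genes were called in kidney (42 strains), of 5 calls among 11038 genes. In lung (28 strains) 4 were called, of 4 calls among 12532 genes. Without the 2 farthest strains in lung, CC041 and CC039, 7 were called there, of 7 calls among 12532 genes.

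That genes were called in lung and kidney and not in liver does not show that the tissues differ. The slopes on *Nr4a1* were therefore compared in 1 fit of all 3 tissues with strain as a block, a test added after seeing the data. For *Fos*, the slope was higher in lung than in liver by 0.45 ± 0.13 (q = 0.22) and higher in kidney than in liver by 0.59 ± 0.14 (q = 0.29). None of the 18 listed genes passed in any difference by limma-voom, while 9 (lung minus liver), 7 (kidney minus liver) and 0 (lung minus kidney) had an unadjusted p under 0.05, as did 923, 989 and 353 of 11878 genes. Without the replicate block, the difference for *Fos* between lung and liver passed (q = 0.034) and was the only one in the list.

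The promoters of 3 genes that varied together are shown for their cAMP response motifs (CGTCA), through which early response genes are known to be switched on. The 3 are examples and do not stand for the list as a whole. The windows run from 250 bases before to 50 bases after the start of the gene, in RefSeq on GRCm38.p6, and the letters CGTCA, on either strand, are in capitals. The window of *Nr4a1* is chr15:101266596-101266895 (plus strand), that of *Fos* chr12:85473640-85473939 (plus) and that of *Btg2* chr1:134079106-134079405 (minus).
Nr4a1: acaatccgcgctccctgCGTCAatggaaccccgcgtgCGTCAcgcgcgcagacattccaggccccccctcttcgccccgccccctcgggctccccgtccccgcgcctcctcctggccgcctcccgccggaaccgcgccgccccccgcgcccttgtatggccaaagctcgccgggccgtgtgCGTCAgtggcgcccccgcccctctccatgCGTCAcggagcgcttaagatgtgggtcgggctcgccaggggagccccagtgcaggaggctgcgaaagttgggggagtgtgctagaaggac
Fos: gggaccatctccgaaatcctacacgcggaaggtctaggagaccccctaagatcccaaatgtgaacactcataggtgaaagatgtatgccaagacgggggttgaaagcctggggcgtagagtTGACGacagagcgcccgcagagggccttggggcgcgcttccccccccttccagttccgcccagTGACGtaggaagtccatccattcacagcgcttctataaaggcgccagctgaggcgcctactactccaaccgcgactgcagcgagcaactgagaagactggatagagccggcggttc
Btg2: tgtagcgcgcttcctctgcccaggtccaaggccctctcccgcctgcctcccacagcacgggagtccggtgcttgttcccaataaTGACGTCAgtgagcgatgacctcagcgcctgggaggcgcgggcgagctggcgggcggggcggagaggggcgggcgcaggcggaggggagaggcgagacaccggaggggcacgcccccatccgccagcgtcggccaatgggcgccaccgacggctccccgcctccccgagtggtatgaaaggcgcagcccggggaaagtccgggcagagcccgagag
The window of *Nr4a1* held 4 CGTCA motifs, that of *Fos* 2 and that of *Btg2* 2, which overlap as the 2 arms of 1 full site (TGACGTCA). Of 32851 promoter windows, 20.8% held at least 1 CGTCA motif, 5.01% at least 2, 1.03% at least 3 and 1.79% a full site. Counted by gene, 9 of the 14 early response genes with a window (64.3%), 13 of the 31 receptors with one (41.9%) and 23% of 27025 genes held a CGTCA motif. A full site was held by 2 of the 14 early response genes (14.3%), 1 of the 31 receptors (3.23%) and 2.03% of all genes. None of the 3 windows shown held a serum response box (CArG box), which was found in 1.63% of windows. By gene, such a box was held by 2 of the 14 early response genes (14.3%), 1 of the 31 receptors (3.23%) and 1.81% of all genes. Sequence outside the windows was not searched. Such matches describe the letters and do not show that a factor binds there.

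Other receptors were set against the genes they are known to control in the same way. Across livers, 0 of 20 tested PPAR alpha targets rose with *Ppara*, and 0% of 9293 genes did; 1 of the targets had an unadjusted p under 0.05 by limma-voom, as did 2.67% of all genes. *Cyp4a10*, a fatty acid hydroxylase induced by PPAR alpha, ran from 5.19 to 1110 CPM over the livers, yet its r with *Ppara* was 0.0743 and rho 0.154 (permutation p = 0.619 and 0.301, adjusted 0.619 and 0.326; r 0.160 without the 2 farthest strains). The glucocorticoid receptor gave 0 of 14 targets, against 1.68% of genes, with 0 at an unadjusted p under 0.05 (7.82% of all genes by limma-voom). *Fkbp5*, a chaperone induced by glucocorticoids, ran from 10.8 to 330 CPM with r of 0.0813 and rho of 0.0627 (permutation p = 0.588 and 0.672, adjusted 0.619 and 0.672; r 0.0848 without the 2 farthest). The SD of *Nr3c1* over these livers was 0.185.

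For *Nr1i2*, 0 of 12 tested PXR targets were called in liver, against 4.26% of genes, and 1 had an unadjusted p under 0.05 (11.5% of all genes by limma-voom); *Cyp3a11*, the drug-metabolising enzyme that PXR induces, had r of 0.116 and rho of 0.191 (permutation p = 0.443 and 0.197, adjusted 0.525 and 0.248; r 0.179 without the 2 farthest). For *Nr1i3*, 1 of 11 CAR targets was called, against 3.66% of genes. This was *Por*, the reductase that serves cytochrome P450 enzymes, with a slope of 0.369 ± 0.10 (q = 0.0398), r of 0.437 (permutation p = 0.00216, adjusted 0.00401), rho of 0.502 (p = 0.00029, adjusted 0.000539) and r of 0.430 without the 2 farthest strains. An unadjusted p under 0.05 with a positive slope was found for 4 of the 11 targets and for 11.3% of all genes. The call of *Por* was lost without the 20 strains whose livers held markers of another organ, when 0 of the targets and 159 of 9294 genes were called. *Cyp2b10*, the classical CAR target, ran from 0 to 108 CPM and had r of 0.365 (permutation p = 0.0113, adjusted 0.0184) and rho of 0.268 (p = 0.0675, adjusted 0.107), with r of 0.438 without the 2 farthest, and was not called (q = 0.504). In 23 of the 47 livers *Nr1i3* was at or under 3 counts. In kidney, 0 of 14 mineralocorticoid targets were called with *Nr3c2*, against 0.797% of genes, with 2 at an unadjusted p under 0.05 (7.41% of all genes by limma-voom), and *Sgk1*, a kinase induced by aldosterone, had r of 0.114 and rho of 0.186 (permutation p = 0.444 and 0.210, adjusted 0.525 and 0.248; r 0.151 without the 2 farthest). Fits for *Pparg* were not run, since it was at or under 3 counts in 42 livers and 26 lungs. A fit needed more than 3 counts in at least 24 libraries, a limit chosen after seeing the data. *Nr1i3* in liver just met it, with 24.

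For most receptors, no correlation between organs of the same mice was called. A gene was called here where r of log2 CPM between 2 tissues over 47 strains was positive with q at most 0.1. Between liver and lung 2 of 13 testable receptors were called (15.4%, against 15.1% of all genes), between liver and kidney 2 of 14 (14.3%, against 26.5%) and between lung and kidney 2 of 15 (13.3%, against 19.6%). *Thra* was called in all 3 pairs. *Nr4a1* was called between liver and lung (r = 0.422, rho = 0.487, permutation p = 0.00321 and 0.00067) and between lung and kidney (r = 0.400, rho = 0.342, p = 0.00505 and 0.0189), but not between liver and kidney (r = 0.151). Without the 2 farthest strains r was 0.560 and 0.302 in the first 2 of these, and the call between lung and kidney was lost. *Nr2f2* was called between liver and kidney (r = 0.360, permutation p = 0.0131), but its rho was 0.211 (p = 0.154) and the call was lost without the 2 farthest strains (r = 0.228) and without the strains whose library stands apart. *Nr3c1* had r of -0.065, 0.086 and -0.039 in the 3 pairs.

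For *Thra*, r was 0.539 between liver and lung, 0.493 between liver and kidney and 0.507 between lung and kidney, with rho of 0.491, 0.382 and 0.459 (permutation p between 0.00013 and 0.00839). Without the 2 farthest strains r was 0.375, 0.382 and 0.469, and the call between liver and lung was lost. *Thra* lies at chr11:98601952-98630320 on the plus strand of NCBIM37 (GENCODE vM1). Its 3' end overlaps the 3' end of *Nr1d1* (REV-ERB alpha), a receptor of the circadian clock, at chr11:98629246-98636647 on the minus strand, and 263 exon bases are shared. Whether strand was used in counting is not given in the sources used here, and without it reads from the shared bases cannot be told apart.

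*Nr1d1* was the more abundant of the pair, with medians of 59.8 CPM in liver (2.97 to 109), 62.5 CPM in lung (7.65 to 130) and 24.3 CPM in kidney (1.87 to 58.6). Across strains *Thra* rose with *Nr1d1* in every tissue, with r of 0.765 in liver, 0.784 in lung and 0.607 in kidney and rho of 0.540, 0.701 and 0.586 (permutation p at most 0.00012, adjusted over 12 overlapping pairs at most 0.00036). Without the 2 farthest strains r was 0.527, 0.756 and 0.572. CC015 had the lowest *Nr1d1* in all 3 tissues and the lowest *Thra* in liver (1.40 CPM). With *Nr1d2*, the relative of *Nr1d1* encoded elsewhere, *Thra* had r of -0.131, -0.171 and -0.193 (adjusted permutation p of 0.372, 0.282 and 0.251 over 9 pairs). With the clock output gene *Dbp*, r was 0.344, 0.548 and 0.412 (adjusted p of 0.0347, 0.000292 and 0.00626), but in liver rho was 0.0401 and r was -0.0384 without the 2 farthest strains, so that the liver value rests on those strains. *Nr1d1* itself was correlated between organs, with r of 0.716, 0.766 and 0.696 (adjusted permutation p = 2e-05 over 6 pairs), rho of 0.405, 0.560 and 0.513, and r of 0.573, 0.594 and 0.462 without the 2 farthest.

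**Figure D5:**
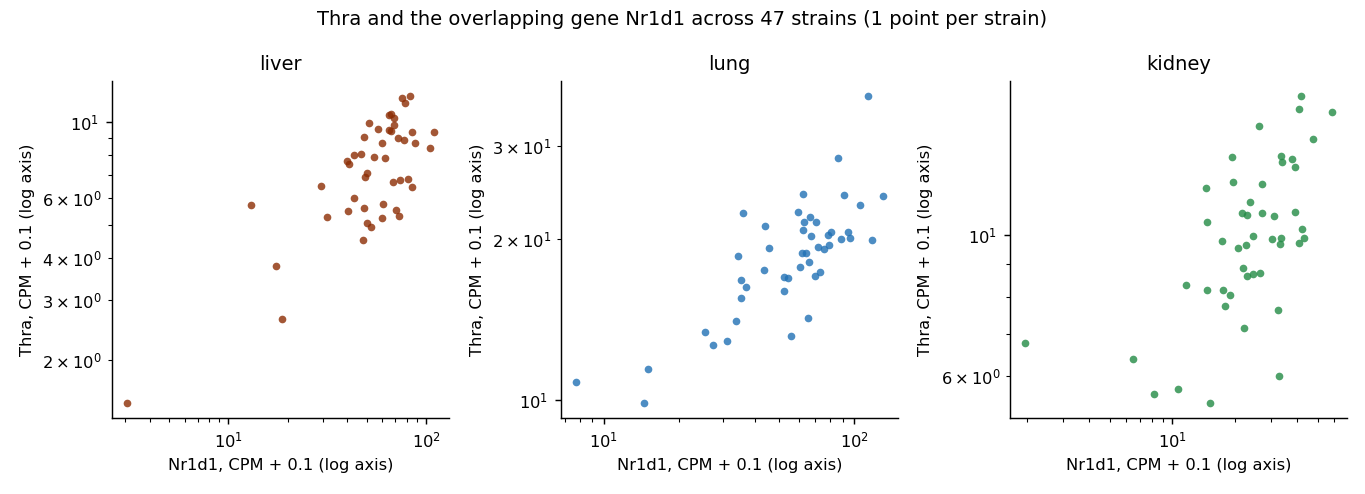
*Thra* (y axis) against *Nr1d1* (x axis), the gene that overlaps its 3' end on the other strand, in CPM with 0.1 added on log axes, in liver, lung and kidney, with 1 point for each of 47 strains. The points rise together in each tissue (r = 0.765, 0.784 and 0.607), and in liver a few strains low in both extend the range.

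When *Thra* was replaced by its residual from a regression on *Nr1d1* in each tissue, a step added after seeing the data, r of *Thra* between tissues fell to 0.192 (liver and lung), 0.181 (liver and kidney) and 0.254 (lung and kidney), with adjusted permutation p of 0.22, 0.22 and 0.127. How far reads of the shared bases make up these values was not tested. In 3 other receptors an overlapping gene of the opposite strand was also measured. *Nr2f6* and *Ocel1*, with 1622 shared exon bases, had r of 0.448 in liver, 0.278 in lung and 0.410 in kidney, *Nr2c2* and *Mrps25*, with 3533 shared bases, had 0.212, 0.480 and 0.293, and *Esrra* and *Trmt112*, with 73 shared bases, had 0.262, 0.448 and 0.0422. After adjustment over the 12 pairs, 4 of these 9 had a permutation p under 0.05.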

How the data were processed

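RNA-seq of 141 libraries (47 strains, 3 tissues) was analysed. Total RNA with an integrity value of at least 7.0 was depleted of ribosomal RNA, and single-end reads were filtered and aligned by the authors with RSEM and STAR 2.5.3a to pseudo-genomes and RefSeq pseudo-transcriptomes of each strain (Build37; mm9 in the submitters' processing notes). The expected counts deposited by the authors estimate uniquely aligned reads per gene and were rounded; 25 values over all files were not whole. The TPM deposited by the authors scales them by transcript length and library total. The deposited FPKM was not used here. Tissue and strain were taken from the labels. Sequencing batch, a covariate of the study, is not in the labels and was left out.

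Counts were scaled by TMM (edgeR 4.0.16). Genes with more than 1 TMM-scaled CPM in at least 30% of libraries (11879) were fitted with limma-voom (limma 3.58.1, R 4.3.3) on tissue and strain, which is a replicate block because 1 mouse gave all tissues of a strain; a filter on CPM of total counts was an alternative. Regressions on a receptor used the libraries of 1 tissue and the same filter within it. Tissues were correlated on log2 CPM (prior count 1), with Pearson p with 45 degrees of freedom and, for receptors, 100000 permutations. All tests were two-sided. The members and gene lists were chosen with earlier results of these data known. Named are all receptors, from each target list the first gene and the 3 calls of smallest q, and from the other lists the 3 largest called changes per direction and pair; the other early response calls, overlapping genes and clock genes were named after their values were seen. One result that this rule would name is not reported here.

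Alternatives were the size factors and the Wald test of DESeq2 1.42.0, edgeR's quasi-likelihood test, no low-count filter, no block, log2(TPM + 1), other thresholds, a rank transformation, library total as a covariate and leaving out the 2 farthest strains. Total counts without TMM, a covariate for the *Rn45s* share, and leaving out strains with markers of another organ, libraries that stand apart, or the deepest and shallowest livers were added after seeing the data. On simulated data the tissue fit recovered 200 of 200 changed genes with 0 false calls among 11879, the regression 200 of 200 with 7 false calls among 9294, the slope comparison 198 of 200 with 10 among 11878 and the correlation 200 of 200 with 9 among 10000. The simulated slope was 0.8, the slope difference 0.8 and r 0.7, and the tissue simulation had no strain effect. The simulated receptor spread more widely than *Nr3c1* in liver (SD 0.185). Smaller effects and narrower receptors were not simulated, so these counts do not give the power for them. Tables and plots were made in Python 3.11.15 with pandas 2.3.3, numpy 2.4.6, matplotlib 3.10.9 and scipy 1.17.1. Promoter windows came from RefSeq (GRCm38.p6), gene positions from GENCODE vM1 (NCBIM37).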

Additional observations from a re-analysis of the deposited data

How the results depend on the processing

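Without strain as a replicate block, the receptors called were 14, 10 and 12 in the 3 tissue pairs, as with it, and 64 of the 66 fold changes kept both their sign and their side of the threshold (2 uncalled ones changed sign). All 66 did with edgeR's quasi-likelihood test and without a low-count filter, 65 without the libraries that stand apart, 58 with the DESeq2 Wald test, 60 with DESeq2 size factors and 29 on log2(TPM + 1), where 9 gained and 14 lost their call. On total counts without TMM, where *Rxra* and *Nr1i2* had no value, 26 of 60 did, 14 gained and 7 lost theirs; the cause was not tested. In both of these settings the log2 fold change of *Esrra* between liver and lung was reversed, at -0.25 and -0.15. For *Rarg* (-1.04, liver against kidney, DESeq2 Wald test), *Thra* (1.11, lung against kidney) and *Nr4a3* (-1.01, liver against kidney, without strains with markers of another organ in liver) the threshold was passed, and for *Esrra* (0.94 and 0.97, liver against lung) and *Thrb* (-0.98 and -0.99, lung against kidney) it was missed with DESeq2 size factors and the Wald test. Without a fold threshold 20 receptors were called between liver and kidney. With log2(TPM + 1) in the regressions, the listed genes called rose to 12 (*Ppara*), 9 (*Nr1i3*), 9 (*Nr1i2*), 11 (*Nr3c1*), 10 (*Nr4a1*, liver), 12 (*Nr3c2*) and 17 (*Nr4a1*, lung), while 4839, 5731, 7562, 8565, 2406, 9647 and 8689 genes were called in all; in kidney *Nr4a1* gave 9. For *Nr1i2*, 1 target was called with library total as a covariate, without the 2 farthest strains and with rank-transformed levels. Without strains with markers of another organ, 0 listed genes were called for *Nr1i3* (159 genes in all). For *Nr4a1*, 4 were then called in kidney (5 genes in all) and 4 in lung (4 in all). Without the 2 farthest strains 1 was called for *Nr4a1* in kidney (1 in all). Receptors correlated between liver and lung numbered 0 on log2(TPM + 1) and 1 without the 2 farthest strains. Between liver and kidney 1 was left with ranks, on log2(TPM + 1), without the 2 farthest strains and without the libraries that stand apart, and between lung and kidney 1 without the 2 farthest strains. Leaving out each replicate in turn was not run, since each tissue had 47. Depth limits the receptors with medians of a few counts, such as *Nr1i3* in liver. The fits planned for *Pparg* were not run.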
